A study of Mus musculus with 4 samples.

Results

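The transcription factor gene Trp63, which encodes p63, and 8 genes that accompany basal epithelial identity were followed in basal cells of the developing mouse prostate. The 9 genes were taken by symbol from a table of 49671 genes: Trp63, Ngfr, Cdh3, Dst, Lgals7, Sfn, Dlk2, Aqp3 and Epcam. All 9 had a row in the table, and all 9 passed the filter on low values. The samples were 4 bulk RNA-seq libraries of male mice, 2 from the tips and 2 from the ducts of the ventral prostate lobe. The strain and any genotype are not named in the labels, and no treatment is given for either group. Lobes of 20 mice were chopped into tips and ducts, and cells carrying CD45, CD31 or CD140a were removed. Basal cells were then sorted as high for both EpCAM and CD49f, so that Epcam is both a measured gene and a gate of the sort. The titles place the mice at postnatal day 13, the age field at days 10 to 12. The field for cell type calls all 4 libraries tip, and the groups were therefore taken from the titles. Whether the libraries of a group came from different animals is not stated, so the p-values measure the spread between these libraries, part of which may be technical.

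Glandular epithelium of the prostate has an outer layer of basal cells on the basement membrane and an inner layer of secretory luminal cells. p63 marks the basal layer, and its gene is transcribed from 2 starts. Transcripts of the upstream start encode TA forms with an N-terminal transactivation domain, and those of the downstream start encode the ΔN forms that predominate in basal cells of stratified and glandular epithelia. p63 is known to activate genes for basal keratins, for adhesion to the matrix and for cell-cell junctions, among them the P-cadherin gene Cdh3.

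The 2 forms of p63 cannot be told apart in the values below, because the table counts reads per gene. Trp63 spans chromosome 16 from 25683763 to 25892102 on the plus strand (GRCm38, GENCODE M21), with 8 coding transcripts; the positions of the other genes are on the same build and annotation. Of these, 4 have their start codon at 25684290 and 4 at 25802060. The first 48 coding bases of each kind are shown, with the start codon in capitals, because they set the 2 forms apart and gene counts sum both.
TA start: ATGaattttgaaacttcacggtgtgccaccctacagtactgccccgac
ΔN start: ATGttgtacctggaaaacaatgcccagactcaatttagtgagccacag

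Promoter sequence, from RefSeq on GRCm38.p6, was found for 7 of the 9 genes, in 9 windows of 250 bases before an annotated start. Trp63 and Cdh3 had no such window. Those of Ngfr, Sfn and Epcam are printed because Ngfr followed the order of Trp63 over the libraries, whereas Sfn and Epcam shared a different one. Capitals mark the letters GGGCGG on either strand, the core of the GC box. The Ngfr window (chr11:95587699-95587948, minus strand) held 4 of them at a GC content of 70.4%. The Sfn window (chr4:133602169-133602418, minus strand, 54.4% GC) held 0, and the Epcam window (chr17:87635729-87635978, plus strand, 56.4% GC) held 1. Dst, a gene highest in duct 1, had a window with 4 GGGCGG at 68.8% GC and another with 0 at 45.2% GC. A link between these letters and the order over the libraries was not tested.
Ngfr: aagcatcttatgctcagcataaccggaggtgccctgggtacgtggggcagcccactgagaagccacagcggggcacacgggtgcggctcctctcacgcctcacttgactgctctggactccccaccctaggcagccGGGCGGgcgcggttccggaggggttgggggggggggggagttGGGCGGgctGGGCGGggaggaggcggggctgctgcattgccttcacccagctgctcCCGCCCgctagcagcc
Sfn: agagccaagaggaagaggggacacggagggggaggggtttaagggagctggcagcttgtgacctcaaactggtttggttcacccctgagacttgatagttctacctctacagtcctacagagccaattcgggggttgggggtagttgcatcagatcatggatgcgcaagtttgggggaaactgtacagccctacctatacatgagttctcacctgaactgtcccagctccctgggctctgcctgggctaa
Epcam: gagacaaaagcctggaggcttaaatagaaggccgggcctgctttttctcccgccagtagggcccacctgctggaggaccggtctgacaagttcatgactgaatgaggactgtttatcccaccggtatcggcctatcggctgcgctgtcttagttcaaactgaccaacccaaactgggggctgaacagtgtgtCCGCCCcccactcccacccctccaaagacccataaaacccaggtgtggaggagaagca

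GGGCGG occurred in 32.7% of 32851 such windows over all genes and in 6 of the 9 windows of these genes. The median GC content over all windows was 52.4%. The half-site of the p53 family consensus, searched without mismatch on both strands, occurred in 7.13% of all windows and in 0 of these 9. TATAAA was present in 12.4% of all windows and in 1 of the 9, that of Aqp3.

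Depth was similar over the libraries. Reads recovered from the scaled values numbered 1439004 to 1742531, and a single read stood for 0.574 to 0.695 CPM, that is reads per 1000000 reads of the library. A count of 0 allows a level of up to 3 reads, or 1.72 to 2.08 CPM. Of 17865 genes tested with limma on log2(CPM + 1), 0 (0%) passed a Benjamini-Hochberg adjusted p of 0.05 in either direction, the smallest adjusted p being 0.667. At an unadjusted p under 0.05 the count was 1326 genes (7.42%), and edgeR called 0, voom 0 and DESeq2 2 genes after adjustment. Stromal RNA differed among the libraries: 15 fibroblast markers summed to 6524 and 13379.7 CPM in the tips and 3272 and 22056 CPM in the ducts, with no marker at 0 in any library. As a check of the labelled cell type, all 4 basal keratins had reads in every library and summed to 2202 and 2149 CPM in the tips and 3979.9 and 1159.6 CPM in the ducts. Luminal markers were present as well: 11 of them summed to 2061 and 1933 CPM in the tips and 2944.5 and 1314 CPM in the ducts, above the basal keratins in duct 2.

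None of the 9 genes passed the test, so that what follows gives levels and not changes. Ngfr and Cdh3, 2 of the 9, had an unadjusted limma p under 0.05, both higher in tip, beside 7.42% of all tested genes (5.82% higher and 1.61% lower in tip). Trp63, Ngfr, Cdh3 and Dlk2 had a higher level in both tips than in either duct, 4 of 9 beside 28.5% of tested genes, and 0 of 9 had a lower level in both tips, beside 11.1%. The log2 fold of tip over duct was positive for 5 of 9, beside 63.1% of all tested genes, with a median of 0.42 beside 0.20. Scaling shifted that background: the median over all tested genes was 0.03 with TMM and -0.19 with scaling to pan-epithelial genes. With TMM 5 of the 9 log2 folds were positive beside 51.6% of tested genes, and 0 of 9 genes were lower in both tips beside 18%. With pan-epithelial scaling 4 of the 9 were positive beside 37.5%.

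**Figure D1:**
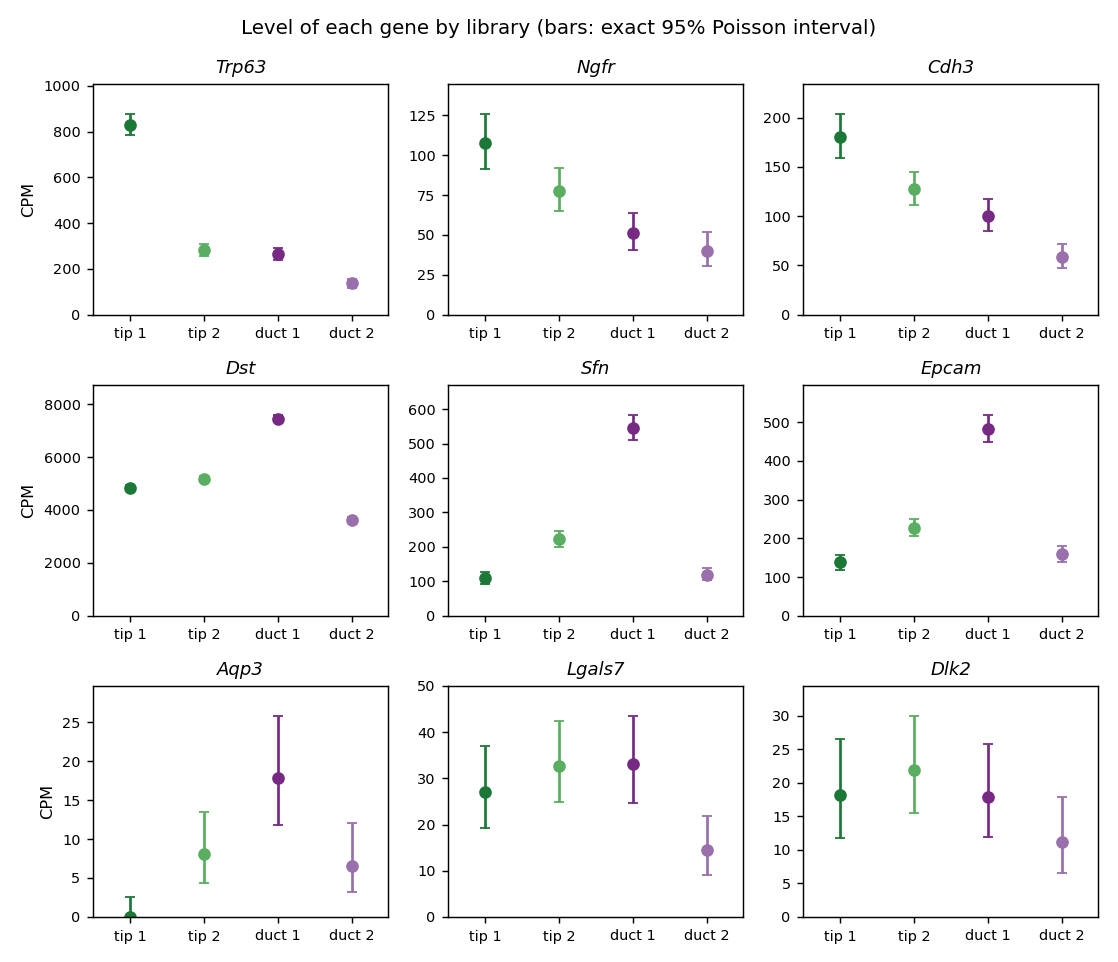
Level of each of the 9 genes in CPM (y axis, from 0, with its own range per gene) in the 4 libraries (x axis). Points are library values and bars are exact Poisson 95% intervals for counting error. Trp63, Ngfr and Cdh3 run highest in tip 1 and lowest in duct 2, whereas Sfn and Epcam peak in duct 1 at 545 and 483 CPM.

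Trp63 measured 829.8 CPM in tip 1, 281 CPM in tip 2, 263 CPM in duct 1 and 136 CPM in duct 2. The groups did not overlap with the deposited scaling, but tip 2 and duct 1 were only 1.07-fold apart, and their counting intervals of 256 to 307 and 239 to 290.0 CPM did. The highest value stood in tip 1, 2.96-fold above tip 2, and the ratio of the ducts was 1.94. Means were 555 ± 388 CPM in the tips and 199.6 ± 90.3 CPM in the ducts (SD, n = 2 each). The log2 fold was 1.35 ± 0.62 (SE, limma adjusted p = 0.677), and it was 0.57 without tip 1 and 2.13 without tip 2. With no filter on low values limma gave an adjusted p of 0.0110, and Trp63 was then the 1 gene of the 9 that passed, beside 0.347% of genes tested; over the 17 alternatives its adjusted p ran from 0.0110 to 1. With TMM scaling, which left 2 of the 9 genes, Ngfr and Cdh3, higher in both tips beside 20.4% of tested genes, the Trp63 values were 745 and 272 against 276 and 149 CPM, so that tip 2 lay below duct 1.

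Cdh3 (chr8:106510891-106557297, plus strand) encodes P-cadherin, the classical cadherin of basal cells. It measured 180.7 and 127 CPM in the tips against 100.2 and 58.65 CPM in the ducts. Ngfr (chr11:95568818-95587735, minus strand) encodes the p75 neurotrophin receptor, a surface marker used to sort basal cells of several epithelia. Its levels were 108 and 77.5 CPM in the tips against 51.05 and 40.2 CPM in the ducts. For both genes each tip library stood above each duct library, with the deposited scaling and after TMM scaling. Ngfr averaged 92.6 ± 21.4 against 45.6 ± 7.67 CPM and Cdh3 154 ± 37.7 against 79.4 ± 29.3 CPM (SD, n = 2 each). The log2 folds were 1.00 ± 0.33 for Ngfr and 0.98 ± 0.35 for Cdh3 (SE), each with an adjusted p of 0.667 in limma. Without duct 1 Cdh3 had an adjusted p of 0.0109 and Ngfr one of 0.0639, beside 3.77% of tested genes past 0.05, with the spread of the remaining duct library taken from the tips. Over the 17 alternatives the adjusted p ran from 0.0639 to 1 for Ngfr and from 0.0109 to 1 for Cdh3. Ngfr is also expressed by Schwann cells and some mesenchymal cells. The 9 Schwann cell and glial markers summed to 132 and 171 CPM in the tips and 116 and 359 CPM in the ducts, highest in duct 2, where Ngfr was lowest. The part of those cells in the Ngfr level was not tested.

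Epcam (chr17:87635979-87651129, plus strand) encodes the homophilic adhesion molecule of the sort. It measured 138 and 227 CPM in the tips and 483 and 159 CPM in the ducts. Sfn (chr4:133600556-133602168, minus strand) encodes 14-3-3 sigma, an adaptor protein of keratinocytes that restrains the cell cycle. Its levels were 108 and 222 CPM in the tips and 545 and 119 CPM in the ducts. Both genes were highest in duct 1 and lowest in tip 1, and the groups overlapped because duct 2 lay between the tip libraries. The ducts differed 3.03-fold for Epcam and 4.57-fold for Sfn, more than the means of the groups did. The log2 fold was -0.65 ± 0.59 for Epcam (limma adjusted p = 0.803) and -0.71 ± 0.90 for Sfn (adjusted p = 0.872). Both values turned on which duct library was kept: without duct 2 the log2 folds were -1.45 (adjusted p = 1.18e-04) and -1.81 (adjusted p = 5.25e-07), and without duct 1 they were 0.15 (adjusted p = 0.885) and 0.38 (adjusted p = 0.689). In each of these the remaining duct library takes its spread from the tips. Without duct 2 limma called 3 of the 9 genes, Sfn, Epcam and Aqp3, beside 5.06% of all tested genes.

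Aqp3 (chr4:41092722-41098183, minus strand) encodes a channel for water and glycerol in basolateral membranes. It had 0 reads in tip 1 and 8.05 CPM in tip 2 (14 reads). In duct it had 17.9 CPM (28 reads) and 6.60 CPM (10 reads). The 0 in tip 1 allows up to 2.08 CPM by the floor of 3 reads, or 2.56 CPM by the exact 95% Poisson interval. Tip 1 was below the other libraries, and tip 2 lay between the ducts. The exact 95% Poisson intervals of tip 2, 4.39 to 13.5 CPM, and duct 2, 3.16 to 12.1 CPM, overlapped widely. The log2 fold on the log2(CPM + 1) scale was -1.99 ± 1.14 (limma adjusted p = 0.704). With a library left out it was -0.41 without tip 1, -3.58 without tip 2, -1.34 without duct 1 (adjusted p = 0.668) and -2.65 without duct 2 (adjusted p = 0.0158), where the remaining duct library takes its spread from the tips.

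Dst (chr1:33908225-34308661, plus strand) encodes dystonin, a giant plakin whose epithelial form ties keratin filaments to hemidesmosomes. At 4824 and 5163 CPM in the tips and 7461 and 3629.9 CPM in the ducts it had the most reads of the 9 genes, 5510 or more in every library. The tip libraries lay between the duct libraries, which differed 2.06-fold. The log2 fold was -0.06 ± 0.36 (limma adjusted p = 0.975). It was -0.58 without duct 2 and 0.46 without duct 1. Annotated exons on the opposite strand overlap 1037 and 456 bases of its exons, and the strand setting of the counting is not given in the sources used here.

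Lgals7 (chr7:28863853-28866284, plus strand) encodes galectin-7, a lectin of stratified epithelia. It measured 27.2 and 32.75 CPM in the tips and 33.2 and 14.5 CPM in the ducts. Dlk2 (chr17:46297421-46303271, plus strand), which encodes an EGF-repeat protein related to the Notch ligands, measured 18.1 and 21.85 CPM in the tips and 17.9 and 11.2 CPM in the ducts. For each, duct 2 was the lowest library and the other 3 libraries had overlapping counting intervals. The Dlk2 interval of duct 2, 6.52 to 17.9 CPM, overlapped those of the other libraries too. That of Lgals7 in duct 2, 9.08 to 21.9 CPM, overlapped tip 1 at 19.3 to 37.0 CPM. The Dlk2 groups were barely apart, with 26 reads in tip 1 and 28 in duct 1, and they overlapped after TMM scaling. The log2 folds were 0.42 ± 0.46 for Lgals7 (limma adjusted p = 0.834) and 0.46 ± 0.44 for Dlk2 (adjusted p = 0.805). Dlk2 shares 51 exonic bases with Abcc10 on the opposite strand.

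**Figure D2:**
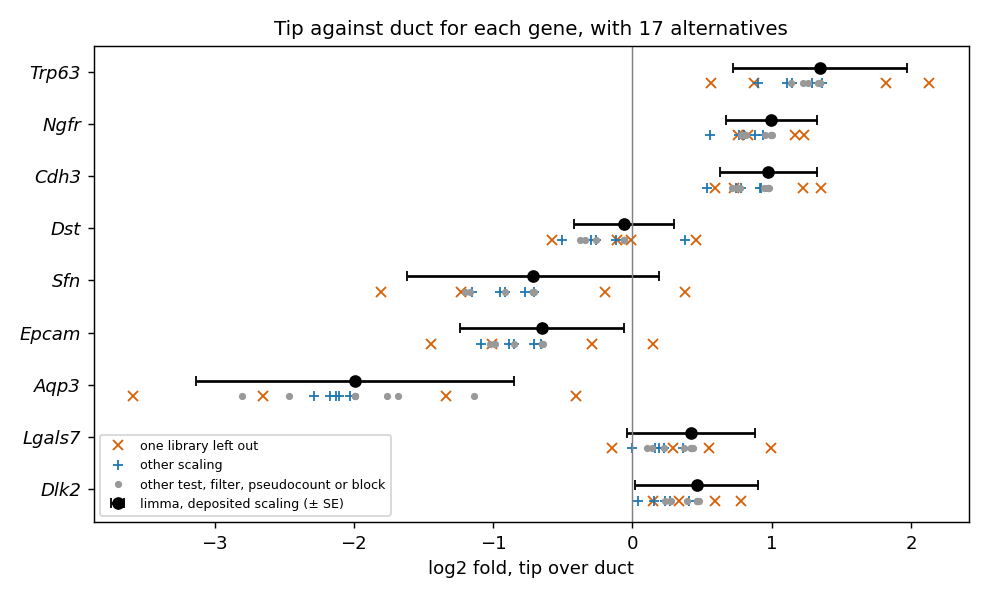
Log2 fold of tip over duct (x axis) for the 9 genes (y axis). Black points with bars give the limma value and its SE with the deposited scaling, and coloured marks give the same fold under 17 alternatives. Trp63, Ngfr and Cdh3 stay to the right of 0 in all of them, as does Dlk2, and Aqp3 stays to the left, whereas Dst, Sfn, Epcam and Lgals7 fall on both sides.

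Per kilobase of annotated exon, the mean level over the 4 libraries was highest for Sfn at 154 CPM per kilobase, then Dst at 128 and Epcam at 115. Sfn ran from 67.2 to 338, Dst from 88.2 to 181 and Epcam from 62.7 to 220.2 CPM per kilobase, so that neighbours in this order did not differ beyond their spread over libraries. The order itself changed between libraries: Sfn led in duct 1 and tip 2, and Dst in tip 1 (117) and duct 2 (88.2). In tip 1 Trp63, at 98.9 CPM per kilobase, stood above Sfn and Epcam. Trp63 followed at 45.0, Lgals7 at 29.0, Cdh3 at 26.6 and Ngfr at 20.1 CPM per kilobase, again with overlapping ranges. Dlk2 at 8.17 and Aqp3 at 4.45 CPM per kilobase were the lowest. The union of exons was used as the length, which overstates it for genes with many alternative exons such as Dst.

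Profiles over the libraries were compared between the 9 genes. Centred on the 4-library mean of log2(CPM + 1), the closest profiles were those of Ngfr and Cdh3 (Euclidean distance 0.30), Lgals7 and Dlk2 (0.36) and Sfn and Epcam (0.47). Trp63 was nearest to Cdh3 (0.85) and Ngfr (0.95) and farther from Epcam (2.61) and Sfn (2.89). Cdh3 and Ngfr were themselves nearer to Dlk2 (0.75 and 0.77) than to Trp63. Dst was nearest to Lgals7 (0.50) and Dlk2 (0.61) and then to Epcam (0.83), so that the genes did not form separate groups. Aqp3 was 2.08 or more from every other gene, with its 0 in tip 1. These distances rest on 4 libraries that share their depth and composition, and they are given as a description.

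**Figure D3:**
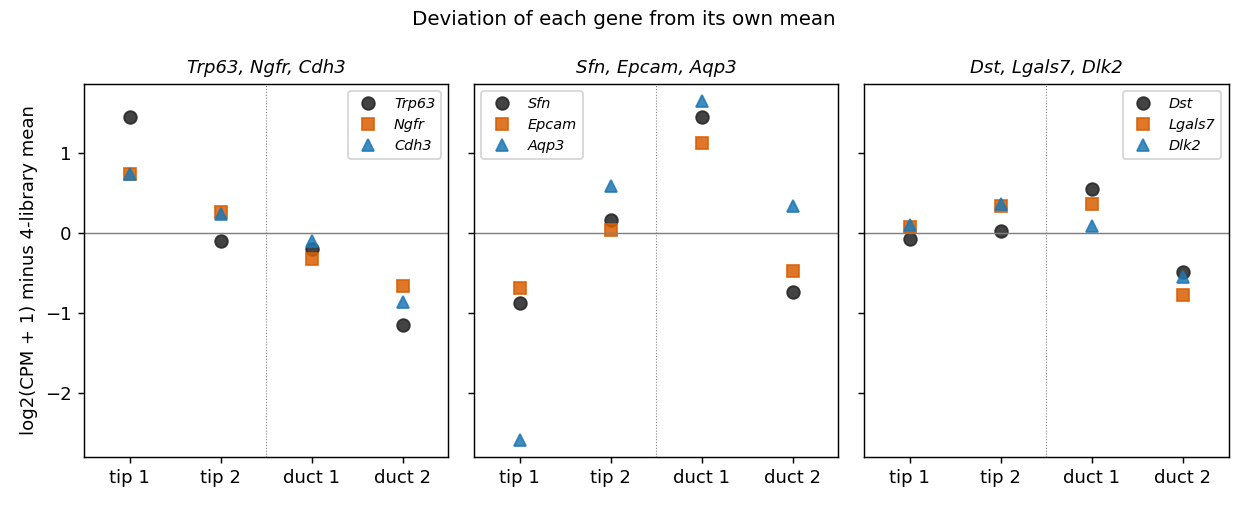
Deviation of log2(CPM + 1) from the 4-library mean of each gene (y axis) by library (x axis), in 3 panels of 3 genes that were put together for display and are not clusters, with tip left and duct right of the dotted line. Trp63, Ngfr and Cdh3 descend from tip 1 to duct 2. Sfn, Epcam and Aqp3 are highest in duct 1 and lowest in tip 1 at -0.87, -0.68 and -2.59. Dst, Lgals7 and Dlk2 are lowest in duct 2 at -0.49, -0.78 and -0.55.

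Among 10595 other named genes that averaged 5 CPM or more, the 5 with profiles nearest to Trp63 were Pgm2 (distance 0.20), Edaradd (0.21), Impa2 (0.21), Fam57a (0.35) and Tnni1 (0.35). Edaradd, which encodes the adaptor of the ectodysplasin receptor, measured 70.2 and 19.55 CPM in the tips against 17.9 and 9.90 CPM in the ducts. Pgm2 measured 22.25 and 6.90 against 7.70 and 3.30 CPM. Likeness to Trp63 chose these genes, so that their high tip 1 values are a description.

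Ratios within a library do not depend on a scaling that gives each library 1 factor, which holds for the scalings used here other than quantile scaling. Trp63 over Epcam was 6.03 and 1.23 in tip against 0.545 and 0.851 in duct, and Trp63 over Sfn was 7.65 and 1.26 against 0.483 and 1.14. Trp63 over Dst was 0.172 and 0.0544 against 0.0353 and 0.0374. In these 3 of the 7 ratios without a 0, both tip libraries stood above both duct libraries, beside 42.8% of 15873 ratios of Trp63 to another gene. Against Cdh3, Trp63 measured 4.59 and 2.20 in tip and 2.63 and 2.31 in duct, and against Ngfr 7.70 and 3.62 in tip and 5.16 and 3.38 in duct, so that these groups overlapped. In each of the 7 ratios tip 1 was the highest library.

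**Figure D4:**
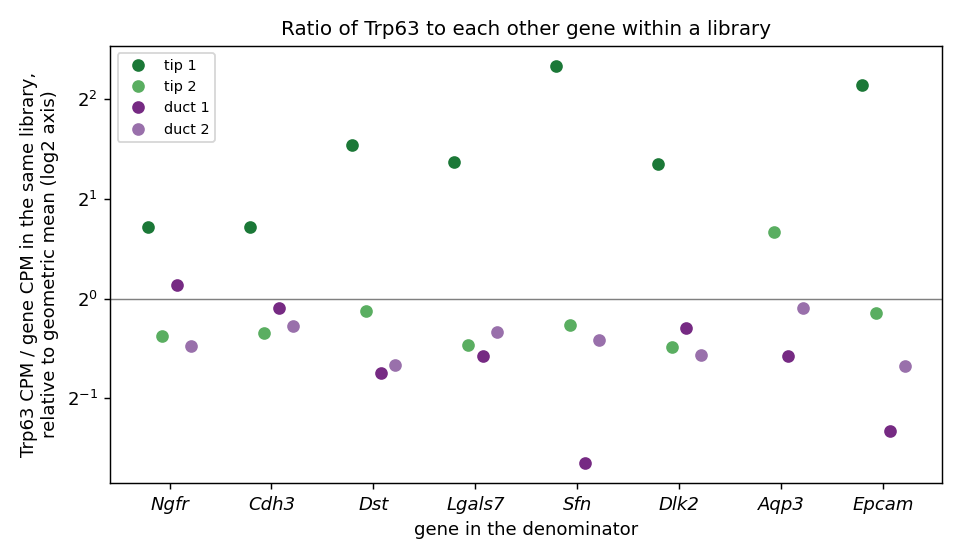
Ratio of Trp63 to each other gene in the same library, divided by the geometric mean of that ratio (y axis, log2 scale), for the 8 denominators (x axis). Tip 1 is the highest point for the 7 genes with reads in every library, and for Aqp3, which had 0 reads in tip 1, the other 3 libraries are shown. With Epcam, Sfn and Dst in the denominator the tip points lie above the duct points.

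Set against Epcam in the same way, 5 of 7 genes with reads in every library had a higher ratio in both tips: Trp63, Ngfr, Cdh3, Lgals7 and Dlk2. The background was 29.2% of 15873 genes. Ngfr over Epcam was 0.783 and 0.341 in tip against 0.106 and 0.252 in duct, and Cdh3 over Epcam 1.31 and 0.561 against 0.207 and 0.368. Dst over Epcam overlapped, with 35.1 and 22.7 against 15.4 and 22.8. The 5 ratios share the Epcam reads and are not independent of each other, and this denominator was chosen after its values were seen.

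All 9 genes had a lower level in duct 2 than in duct 1, beside 51.4% of tested genes. Epithelial genes as a group were lower there too: 18 pan-epithelial genes, of junctions, splicing and apical proteases, summed to 1475 and 1884 CPM in the tips, 2665 CPM in duct 1 and 1083 CPM in duct 2. Of these 18, 2 were higher in duct 2 than in duct 1, as were 14 of the 15 fibroblast markers. In bulk samples fewer epithelial cells and less RNA per cell cannot be told apart. Pdgfra, which encodes the CD140a of the sort, measured 192.5 and 230.7 CPM in the tips and 42.1 and 650.25 CPM in the ducts. Ptprc (CD45) was at 0.60 to 12.55 CPM and Pecam1 (CD31) at 12.15 to 62.6 CPM over the 4 libraries. The most abundant fibroblast markers were Col3a1, at 324 to 5969 CPM, and Col1a1, at 274 to 5922 CPM, both lowest in duct 1 and highest in duct 2. The part of these cells in the lower duct 2 levels was not tested, beyond the rescaling that follows.

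When the libraries were scaled to the mean log2 level of the pan-epithelial genes, the factors were 1.16, 1.17, 1.20 and 0.614 for tip 1, tip 2, duct 1 and duct 2. Trp63 then measured 716 and 239 in tip against 220.1 and 221.1 in duct, on the scaled CPM. Cdh3 measured 156 and 109 against 83.7 and 95.5, and Ngfr 92.9 and 66.0 against 42.7 and 65.5. These 3 of 9 genes were still higher in both tips, beside 9.08% of tested genes, although for Trp63 and Ngfr tip 2 and the nearest duct library were almost level. Dst (4159 and 4399.7 against 6235 and 5911), Sfn (93.5 and 189 against 456 and 194), Aqp3 and Epcam (119 and 194 against 404 and 259.6) were lower in both tips, 4 of 9 beside 21.9%. For Sfn, tip 2 and duct 2 were almost level. Aqp3 measured 0 and 6.86 against 15.0 and 10.7. Its tip 2 value came from 14 reads and its duct 2 value from 10, so that tip 2 was the higher of these with the deposited scaling. With this scaling limma again called 0 of the 9, at an adjusted p of 1.00.

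The other genes of the p63 pathway are given by role. Of 17 genes of the p53 family and of its regulators and partners, 0 passed in limma in either direction, 11 had a positive log2 fold, 4 were higher and 1 lower in both tips, beside 63.1%, 28.5% and 11.1% of all tested genes. The median log2 fold was 0.29 beside 0.20 for all tested genes. Trp73, the p63 relative, measured 15.3 and 4.05 CPM in the tips against 2.60 and 2.65 CPM in the ducts. These were 22 and 7 reads against 4 and 4, so that tip 2 stood above the ducts by few reads. Stxbp4, which protects ΔN forms of p63 from degradation, measured 29.2 and 25.3 against 10.85 and 19.8 CPM. Runx1, a transcription factor of epithelial progenitors, was the gene of this list that was lower in both tips, with 308 and 387 against 951 and 474 CPM. Its log2 fold was -0.96 ± 0.36 (SE, limma adjusted p = 0.667). With a library left out the adjusted p was 0.999 without tip 1, 0.821 without tip 2, 0.446 without duct 1 and 1.05e-05 without duct 2, where the remaining duct library takes its spread from the tips.

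Of 13 adhesion and basement membrane genes linked to p63, 0 passed, 9 had a positive log2 fold, 2 were higher and 2 lower in both tips, with a median log2 fold of 0.28. The shares over all tested genes, for this list and those that follow, were 63.1% positive, 28.5% higher in both tips and 11.1% lower in both tips. Fras1, an extracellular matrix protein, measured 93.85 and 157 CPM in the tips against 91.2 and 85 CPM in the ducts. The tetraspanin gene Cd151 measured 79.25 and 70.05 against 68.25 and 44.8 CPM. The nectin gene Nectin1 overlapped, with 474 and 275.5 against 355 and 158 CPM.

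Of 11 signalling and cell cycle genes linked to p63, 0 passed, 6 had a positive log2 fold, 4 were higher and 2 lower in both tips, with a median log2 fold of 0.21. Bmp7, a bone morphogenetic protein, measured 126 and 105.05 CPM in the tips against 59.35 and 36.9 CPM in the ducts, with a log2 fold of 1.28 ± 0.34 (SE, limma adjusted p = 0.667). Jag2, a Notch ligand, measured 306.5 and 211 against 177 and 94.9 CPM. Cdkn1a, which encodes the cell cycle inhibitor p21, was lower in both tips, with 98.0 and 142 against 290.15 and 170.0 CPM. The other gene lower in both tips had only 1 and 3 reads in tip against 3 and 3 in duct.

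Of the 4 basal keratins, 0 passed, 2 had a positive log2 fold, 1 was higher in both tips and 0 lower, and the median was 0.12. Krt5 was the gene with non-overlapping groups, at 650.5 and 513 CPM in the tips against 490.4 and 148 CPM in the ducts. Krt17 measured 209 and 406 against 1013 and 316 CPM, and Krt15 744 and 543 against 732 and 184 CPM. Krt17 was thus highest in duct 1 and lowest in tip 1, the order of Sfn and Epcam.

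**Figure D5:**
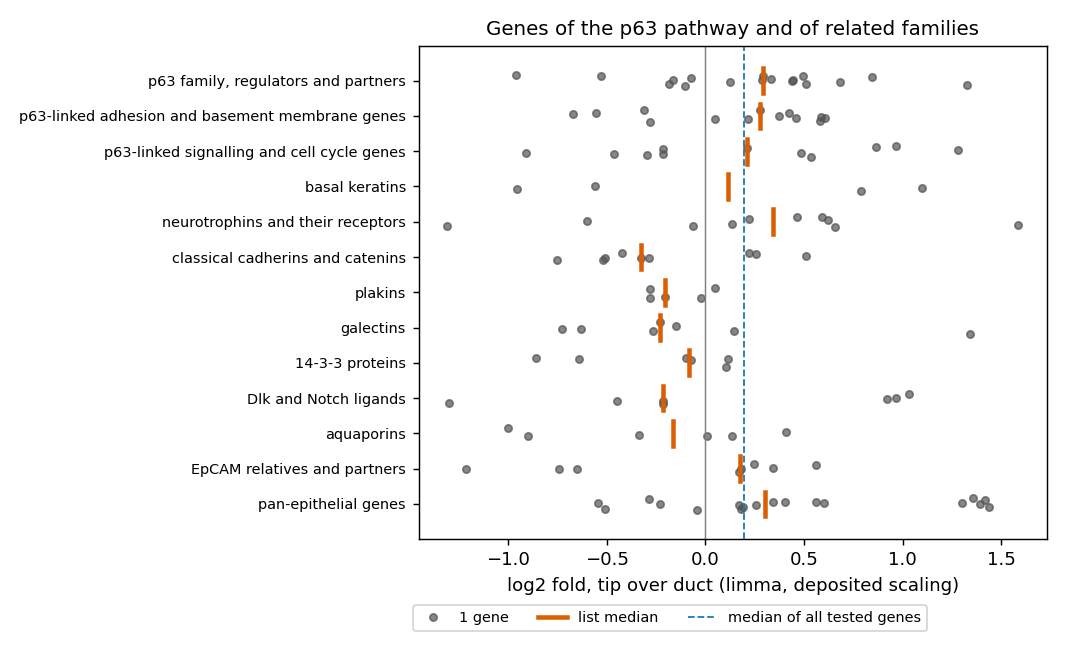
Log2 fold of tip over duct (x axis) for each tested gene of 13 lists (y axis), with the list median as an orange bar and the median of all tested genes, 0.20, as a dashed line. The list medians lie between -0.32 and 0.34, and single genes spread well beyond them on both sides of 0.

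Relatives of the 9 genes were listed as well, and 0 of them passed in limma. Of 10 neurotrophin and receptor genes beside Ngfr, 7 had a positive log2 fold (beside 63.1% over all genes), 3 stood higher (28.5%) and 0 lower (11.1%) in both tips, with a median log2 fold of 0.34. Ntf3, the neurotrophin-3 gene, measured 12.55 and 8.65 CPM in the tips against 3.85 and 2.00 CPM in the ducts. These were 18 and 15 reads against 6 and 3. Sort1, which encodes the p75 co-receptor sortilin, measured 106 and 82.1 against 58.7 and 59.3 CPM. Of 9 classical cadherin and catenin genes, 3 had a positive log2 fold, 2 were higher and 0 lower in both tips, with a median log2 fold of -0.32. Ctnnb1, the beta-catenin gene, measured 493 and 456 against 427 and 369 CPM. Ctnna1 measured 370 and 393 against 587 and 368 CPM, and Cdh11 157 and 246 against 82.3 and 230 CPM. The groups of Ctnna1 and of Cdh11 overlapped.

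Of the 5 other plakin genes measured 1 had a positive log2 fold and 2 were lower in both tips (median -0.20), among them the hemidesmosomal Plec at 1235 and 1120.25 against 1536 and 1325 CPM. Of 7 other galectin genes 2 had a positive log2 fold and 2 were lower in both tips (median -0.23), among them Lgals3 at 9.05 and 14.35 against 26.15 and 14.5 CPM. For Lgals3, tip 2 (25 reads) and duct 2 (22 reads) were almost level. Of 6 other 14-3-3 genes 2 had a positive log2 fold, 1 was higher and 2 were lower in both tips (median -0.09). Ywhag, the 14-3-3 gamma gene, measured 115 and 153 against 247 and 236 CPM, and Ywhah, the 14-3-3 eta gene, 50.75 and 64.85 against 94.4 and 85.65 CPM. Unlike Sfn, these genes had similar levels in both ducts.

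Of 7 ligand genes related to Dlk2, 3 had a positive log2 fold, 1, Jag2, was higher and 1, Dll3, lower in both tips (median -0.21). Dll3 had only 2 and 3 reads in tip against 6 and 11 in duct. Of 6 other aquaporin genes tested, 3 had a positive log2 fold and 0 had non-overlapping groups (median -0.16). Aqp1, a water channel of endothelium, measured 26.45 and 23.0 CPM in the tips against 14.7 and 144 CPM in the ducts. Of 8 relatives and partners of EpCAM, 5 had a positive log2 fold, 0 were higher and 1 lower in both tips (median 0.18). The tetraspanin gene Cd9 measured 139 and 167 against 341 and 168 CPM. It was lowest in tip 1 and highest in duct 1, as Epcam was, and its tip 2 and duct 2 values were almost level.

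Of the 18 pan-epithelial genes, 0 passed, 13 had a positive log2 fold, 5 were higher and 0 lower in both tips, with a median log2 fold of 0.30. Grhl2, an epithelial transcription factor, measured 147 and 88.4 CPM in the tips against 63.15 and 32.95 CPM in the ducts, and Ehf, an ETS factor of epithelia, 279 and 154 against 119 and 51.4 CPM. Both had the descending order of Trp63, Ngfr and Cdh3. Ap1m2 measured 18.8 and 18.95 CPM in the tips against 7.70 and 5.95 CPM in the ducts, so that its tip libraries were level. The epithelial genes therefore did not share a single order over the libraries.

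Markers of other cell types stood beside these levels as follows. Of the 11 luminal markers 1 was at 0 in duct 2 and none in the other 3 libraries. Suprabasal markers of stratified epithelium, 10 genes, summed to 48.15 and 75.9 CPM in the tips and 161 and 72.05 CPM in the ducts, highest in duct 1 like Sfn, with 2 to 4 of them at 0 in each library. Urothelial markers, 6 genes, summed to 8 to 36.85 CPM, smooth muscle markers to 577 to 2619.9 CPM, endothelial markers to 36.6 to 283 CPM and immune markers to 77.95 to 199.6 CPM. Most of the immune sum in each library was Cd3e, at 131 and 88.4 CPM in the tips and 61.25 and 68.55 CPM in the ducts. Of 7 pancreatic islet markers 5 or 6 were at 0 in 3 libraries, whereas duct 2 held 349 CPM in sum. The part of these cell types in the levels of the 9 genes was not tested.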

How the data were processed

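Bulk RNA-seq of 4 libraries was used, 2 of tip and 2 of duct basal cells. STAR, HTSeq, GRCm38 and mm10 are named, per the submitters' processing notes; no version, annotation release or strand setting is given in the sources used here. From its values, the authors' deposited signal holds gene read counts rescaled so that each library sums to between 20008326 and 20011820, rounded up. Whole reads, within 0.1 read, were recovered for 100% of values, and at least 99.95% of values were given back exactly on rescaling. CPM is the deposited value over 20.

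Genes averaging 1 CPM or more were tested, tip against duct, with limma 3.58.1 (R 4.3.3; log2(CPM + 1), variance trend, robust), 2-sided, with Benjamini-Hochberg adjustment over 17865 genes at 0.05. Folds on this scale understate the difference of low genes. Alternatives were edgeR 4.0.16, DESeq2 1.42.0 and voom on recovered reads, 5 scalings, 2 pseudocounts, 2 filters, a replicate block and each library left out. An exact permutation test of 2 against 2 libraries cannot give a 2-sided p under 0.333. Fits were run on simulated reads with a common dispersion and the same expected composition for libraries of a group. The libraries here differed in stromal RNA within a group, so that run does not show how the fits behave on them. Poisson intervals and floors cover counting error only. Positions and exon lengths are from GENCODE M21, which holds 49326 of the 49671 identifiers.

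The 9 genes, the lists and the tests were chosen with earlier results of these data known. Named are the 9 genes, up to 3 genes of smallest limma p from each list, up to 2 of the most abundant markers of a cell type, and the 5 genes nearest to Trp63. Pdgfra, Ptprc and Pecam1 are outside this rule and were added, after their values were seen, because the sort used their proteins. A gene that the rule takes from the list of EpCAM relatives is not reported here.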

Additional observations from a re-analysis of the deposited data

How the results depend on the processing

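With 2 libraries a group, the spread between libraries limits the comparison. Counting error limits Aqp3, Dlk2 and Lgals7 as well, and listed genes with few reads such as Trp73, Ntf3 and Dll3. Where a value moved, the cause was not tested. Of 153 alternative folds of the 9 genes, 142 stayed on their side of 0 and of the threshold, 5 newly passed and 6 reversed; of 729 for the other named genes these counts were 695, 17 and 17, and 41 of 221 list medians moved. Members higher in both tips numbered 2 under TMM, beside 20.4% of tested genes. They also numbered 2 under median-ratio, edgeR, DESeq2 and voom, for which the share over all tested genes is not given here. Trp63, Ngfr and Cdh3 stayed higher in both tips under quantile scaling. The same 3 did so with mitochondrial and the top 10 genes left out of the total. Members lower in both tips numbered 4 under pan-epithelial scaling (beside 21.9%). With a library left out, 4 to 6 members were higher and 0 to 5 lower in the tip libraries kept. A group then holds 1 library, so non-overlap is easier to reach, and these counts are not comparable with those of 4 libraries. With no filter limma called 94 genes (62 higher and 32 lower in tip) and 1 member; DESeq2 called 2 genes, 2 of them lower. With a library left out limma called 0 to 904 genes, 0 to 698 higher and 0 to 311 lower, and 0 to 3 members; without duct 1 it called 673 and without duct 2 904.

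The title numbers are shared by both groups, and same-numbered deviations correlated at 0.15 over 17865 genes, with 2 pairs. The deposited column for tip 2 carries T3 and that for duct 2 carries D2, so the columns' own numbering does not match this pairing, and the libraries share only a title number. The replicate block called 0 genes and 0 members, with limma adjusted p of 0.261 for Trp63, 0.436 for Ngfr and 0.432 for Cdh3, and changed no call.

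Log2 folds reversed for Dst (0.38 under quantile scaling, 0.46 without duct 1), Lgals7 (-0.0019 under pan-epithelial scaling, -0.15 without duct 2), Sfn (0.38) and Epcam (0.15), both without duct 1. Ywhaq reversed to -0.0838 (TMM), -0.12 (median-ratio), -0.33 (pan-epithelial), -0.0838 (edgeR), -0.12 (DESeq2) and -0.0839 (voom). Under pan-epithelial scaling Cd151 gave -0.0142 and Ctnnb1 -0.19. In all settings named for Ywhaq, pan-epithelial scaling among them, the median over all tested genes was lower as well, as given below. With a library left out, log2 folds ran from -0.15 to 0.99 for Lgals7, -1.81 to 0.38 for Sfn, -1.45 to 0.15 for Epcam, -0.58 to 0.46 for Dst, -0.0659 to 0.89 for Aqp4, -2.50 to 0.71 for Aqp1, -0.47 to 0.0461 for Jag1, -0.23 to 1.25 for Cdh11, -0.62 to 0.0524 for Ctnna1, -0.33 to 3.01 for Lgals1, -0.96 to 0.40 for Ppl, -0.20 to 1.78 for Krt15 and -0.0642 to 1.18 for Spint2. Signs turned without tip 1 for Aqp4, without tip 2 for Jag1, without duct 1 for Cdh11, Ctnna1, Lgals1 and Ppl, and without duct 2 for Aqp1, Krt15 and Spint2.

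Medians moved as follows, and the median over all tested genes moved with them. It was 0.20 with the deposited scaling, 0.03 under TMM, -0.0068 under median-ratio scaling and -0.19 under pan-epithelial scaling. With edgeR, DESeq2 and voom it was -0.0073, -0.046 and 0.026. List medians are to be read beside these values. Under TMM, signalling and cell cycle genes gave 0.0155 and 14-3-3 genes -0.28. Under median-ratio scaling they gave -0.0211 and -0.32. Pan-epithelial scaling gave -0.15 for the p63 family, -0.22 for signalling, -0.73 for cadherins and catenins, -0.63 for plakins, -0.53 for 14-3-3 genes and -0.38 for aquaporins. edgeR, DESeq2 and voom gave -0.28, -0.31 and 0.0052 for signalling, -0.80, -0.83 and -0.63 for cadherins, -0.30, -0.34 and -0.29 for 14-3-3 genes, and -0.54, -0.58 and -0.53 for aquaporins. Galectins gave -0.61 in edgeR and -0.69 in DESeq2. With no filter aquaporins gave 0.0700. With a mean of 5 CPM or more, where fewer genes were tested, aquaporins gave -0.90 and Dlk and Notch ligands 0.92. With a library left out, medians ran from -0.0504 to 0.63 for signalling, -0.38 to 0.82 for adhesion, -0.82 to 1.05 for basal keratins, -0.0905 to 0.70 for neurotrophins, -0.33 to 0.21 for cadherins, -0.22 to -0.0594 for 14-3-3 genes, -0.64 to 0.23 for aquaporins, -0.43 to 0.61 for EpCAM relatives and -0.21 to 1.11 for pan-epithelial genes.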
